A study of Mus musculus with 18 samples.

Results

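The 9 genes described here encode the main drug and organic anion transporters of hepatocytes: Slco1a1, Slco1a4, Slco1b2, Slco2b1, Abcc2, Abcb1a, Abcg2, Abcc3 and Abcc4. They were chosen by name, out of 40840 genes in the count tables, for their place in one transport route, with earlier results of these data known. Enough counts for a test were found for all 9 in the DIO model and for 8 in the ob/ob model, where Slco1a1 was close to 0. On build GRCm39, used for the counts, 4 of the genes lie on chromosome 6: Slco1b2 (chr6:141575178-141632372), Slco1a4 (chr6:141751164-141802011) and Slco1a1 (chr6:141853007-141892688), which lie near each other, and Abcg2 (chr6:58561476-58669436). The others are Abcb1a (chr5:8617091-8798575), Slco2b1 (chr7:99307011-99360547), Abcc3 (chr11:94234121-94283843), Abcc4 (chr14:118720104-118945475) and Abcc2 (chr19:43770747-43826771). Reads were counted over all exons of a gene.

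Liver poly-A RNA was sequenced from ovariectomized female C57BL/6 mice of 2 obesity models, with 3 libraries in each of 6 groups and 18 libraries in all. DIO (diet-induced obesity) mice were wild type and were fed a diet in which fat gave 45% of the calories, with cholesterol at 0.2%, from 1 week before ovariectomy, while ob/ob mice lack leptin and ate a normal diet. In both models an osmotic minipump released vehicle (a mixture of DMSO, ethanol and saline), E2 (17β-estradiol) at 5 µg/kg/day or PaPE-1, a pathway preferential estrogen designed to favour extranuclear estrogen receptor signalling, at 300 µg/kg/day for 6 weeks. The loss of the ovaries was thus common to all groups, vehicle included, and the age of the mice is not given in the sources used here. The labels call the RNA preparations biological replicates but state that 2 per group were sequenced, whereas 3 libraries per group were present, as many as the biological replicates, and all were used. Total counts per library ran from 16651616 to 21703791 for DIO and from 10470665 to 17021370 for ob/ob. All 10 hepatocyte markers checked had counts in every library, and their summed level was 114763 to 199667 CPM (read counts scaled to a common library size, within each model, by the TMM method).

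Hepatocytes take organic anions up from sinusoidal blood through organic anion transporting polypeptides, which the Slco genes encode, and pass them out through ATP-binding cassette pumps, which the Abc genes encode. Some pumps sit in the canalicular membrane and export into bile, and others sit in the basolateral membrane and return conjugates to blood. Nuclear receptors such as CAR (Nr1i3) and PXR (Nr1i2), the oxidant sensor NRF2 (Nfe2l2) and the sex-dependent pattern of growth hormone are known to set the mRNA level of several of them in mouse liver.

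The promoters of 4 of these genes are shown because their mRNAs mark the range of the results. Abcc2 and Abcb1a were members that fell with E2 in ob/ob liver, and Slco1b2 and Slco1a1, which lie on either side of Slco1a4 on chromosome 6, had the highest and the lowest mRNA level in vehicle liver. Each sequence is the 250 bases before the start of transcription on the gene's own strand, from RefSeq on build GRCm38.p6, at chr19:43782058-43782307 (plus strand) for Abcc2, chr5:8566841-8567090 (plus) for Abcb1a, chr6:141629268-141629517 (plus) for Slco1b2 and chr6:141946963-141947212 (minus) for Slco1a1. Capitals mark AGGTCA, the core letters of many nuclear receptor sites, TGACNNNGC, the core of the antioxidant response element that NRF2 binds, and GTTAAT, part of the site of the hepatocyte factor HNF1, each searched on both strands.
Abcc2: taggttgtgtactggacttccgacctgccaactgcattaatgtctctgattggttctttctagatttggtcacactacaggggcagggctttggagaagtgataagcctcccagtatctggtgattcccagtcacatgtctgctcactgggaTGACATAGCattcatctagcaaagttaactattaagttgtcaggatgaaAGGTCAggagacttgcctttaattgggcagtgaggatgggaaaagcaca
Abcb1a: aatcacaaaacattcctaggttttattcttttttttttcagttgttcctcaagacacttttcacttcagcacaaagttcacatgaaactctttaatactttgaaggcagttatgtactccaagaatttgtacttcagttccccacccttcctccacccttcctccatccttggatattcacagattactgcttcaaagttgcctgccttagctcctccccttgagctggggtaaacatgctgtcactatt
Slco1b2: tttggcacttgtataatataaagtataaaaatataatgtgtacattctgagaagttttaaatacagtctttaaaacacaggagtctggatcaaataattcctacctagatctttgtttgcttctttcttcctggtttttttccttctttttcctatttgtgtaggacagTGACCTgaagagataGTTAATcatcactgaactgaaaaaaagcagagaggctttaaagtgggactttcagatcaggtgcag
Slco1a1: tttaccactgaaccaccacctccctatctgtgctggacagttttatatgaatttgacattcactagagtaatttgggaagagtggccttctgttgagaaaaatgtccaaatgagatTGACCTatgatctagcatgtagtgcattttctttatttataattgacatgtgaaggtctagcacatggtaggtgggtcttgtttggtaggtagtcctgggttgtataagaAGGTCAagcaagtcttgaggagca
The Abcc2 window held AGGTCA 49 bases and TGACNNNGC 98 bases before the start. The Abcb1a window held none of the 3 motifs. The Slco1b2 window held AGGTCA on the reverse strand and GTTAAT, 81 and 66 bases before the start, and the Slco1a1 window held AGGTCA at 134 (reverse strand) and 24 bases. No matches overlapped in these windows. Of 32851 promoter windows of this length, 14% held AGGTCA, 10.2% TGACNNNGC and 6.43% GTTAAT, so that none of these letters is rare. Promoters of 8 of the 9 genes were matched by symbol. Among those not shown, Abcc4 has 2 listed starts and held TGACNNNGC at each, 25 (reverse strand) and 23 bases before them. The window of Slco1a4 and those of the 3 starts of Slco2b1 held none of the motifs. Abcg2 has 3 listed starts, of which the first held AGGTCA at 2 places, the second none of the motifs and the third AGGTCA at 1 place, and gene counts do not tell which start was used. A match of letters is a description and not a site of binding.

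The levels of the 9 mRNAs spanned several orders of magnitude. In DIO vehicle liver, Slco1b2, which encodes the main hepatic uptake carrier of the family, stood highest at 317 ± 42.9 CPM per kilobase of exon (SD, n = 3). Abcc2, the canalicular pump for glucuronide and glutathione conjugates, followed at 59.1 ± 10.9, with Abcc3, its basolateral relative, at 49.0 ± 4.81 and Slco2b1, a further uptake carrier, at 43.2 ± 2.52 CPM per kilobase. The libraries of these last 3 genes overlapped between neighbours in this order. Slco1a4 (26.0 ± 1.53), Abcg2 (17.3 ± 4.47), Abcb1a (3.84 ± 0.397), Abcc4 (1.63 ± 0.60) and Slco1a1 (0.653 ± 0.314 CPM per kilobase) came next, each with all its libraries above those of the gene after it.

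In ob/ob vehicle liver Slco1b2 was again first and Slco1a1 last, while Abcc3 and Abcc2 changed places and Abcg2 stood higher in the order. Slco1b2 stood at 214 ± 35.8 CPM per kilobase, with all libraries above those of Abcc3 (58.4 ± 14.3). Abcg2, the canalicular pump also known as breast cancer resistance protein, followed Abcc3 and Abcc2 at 30.2 ± 2.13 CPM per kilobase, level with Slco2b1 at 30.2 ± 5.47, whereas in DIO vehicle liver it came after Slco2b1 and Slco1a4. Slco1a1 had 5, 0 and 2 counts in the 3 ob/ob vehicle libraries, 0 in each E2 library and 0, 1 and 0 in the PaPE-1 libraries. Only the first of these values is above a floor of 3 counts per library, so no fold change is given for Slco1a1 in ob/ob liver. The models stand in separate count tables that were scaled separately, so their levels are set side by side without a test.

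**Figure D1:**
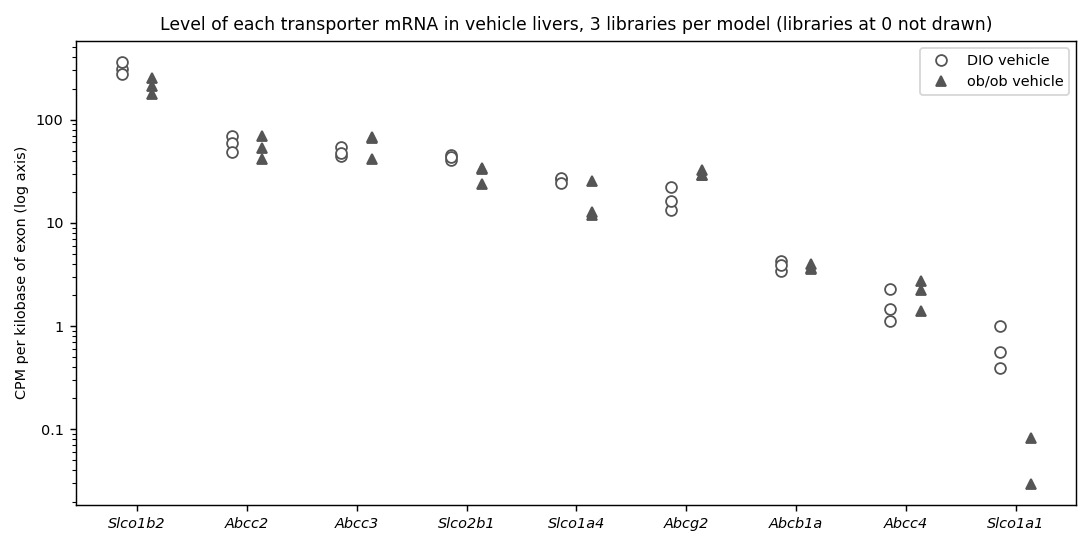
mRNA level of the 9 transporters in vehicle liver, in CPM per kilobase of exon on a log axis, with 1 point per library (open circles DIO, filled triangles ob/ob). Slco1b2 is highest in both models and Slco1a1 lowest, with means of 0.653 CPM per kilobase in DIO and 0.0372 in ob/ob liver, where the library at 0 is not drawn.

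In ob/ob liver, E2 lowered Abcg2, Abcb1a and Abcc2, the 3 canalicular pumps among the members, to between 0.486 and 0.541 times the vehicle level. None of the 8 members tested rose. Of 11 other efflux pumps tested, 1 fell and 2 rose, with a median log2 fold change of 0.003. The 3 calls among 8 members stand beside a background of 22.1% of all 13433 genes tested in either direction, and of 12.3% lower. The median log2 fold change of the 8 members was -0.50, against 0.01 for all genes tested. In bulk liver, fewer cells of a type and less RNA per cell cannot be told apart.

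Abcg2 had 107, 121 and 107 CPM in the vehicle libraries and 54.7, 55.2 and 53.0 CPM in the E2 libraries. The groups were far apart, and the E2 libraries differed little among themselves. The log2 fold change was -1.04 (SE 0.12, 95% confidence interval -1.31 to -0.78, adjusted p = 0.00107, edgeR quasi-likelihood test with Benjamini-Hochberg adjustment over all genes tested).

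Abcb1a encodes a P-glycoprotein, the pump for bulky lipophilic drugs. It had 18.5, 20.6 and 18.97 CPM with vehicle and 9.77, 9.91 and 11.2 CPM with E2. These groups did not overlap, and the share of all genes without overlap was not counted. The log2 fold change was -0.91 (SE 0.17, interval -1.28 to -0.54, adjusted p = 0.00503). Of the 100-base stretches in its transcripts, 9.23% also occur in transcripts of Abcb1b or Abcb4, so some of its reads could belong to those relatives or be lost as multiply mapped. For Slco1a1 and Slco1a4 this share was 0.614% and 0.64%, and for the other 6 members it was 0%.

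Abcc2 had 391, 236 and 301 CPM with vehicle and 179, 149 and 175 CPM with E2. All E2 libraries were below all vehicle libraries, which spread more widely than those of Abcg2. The share of all genes with such a separation was not counted. The log2 fold change was -0.89 (SE 0.22, interval -1.37 to -0.40, adjusted p = 0.0175). The Abcc2 call was lost when replicate 2 or replicate 3 of the E2 group was left out (adjusted p = 0.0846 and 0.0518), while those of Abcg2 and Abcb1a passed in all 13 alternatives, removal of the trend with gene length included.

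The basolateral pumps did not pass. Abcc4, which exports bile acids and cyclic nucleotides to blood, had 24.7, 12.7 and 20.2 CPM with vehicle and 11.9, 12.3 and 14.6 CPM with E2, and the log2 fold change was -0.58 with SE 0.20 and an adjusted p of 0.0515. It passed with DESeq2's Wald test (adjusted p = 0.0407), with no filter on low counts (0.0149) and without replicate 2 of the vehicle group (0.0116). Abcc3 had 341, 213 and 335 CPM with vehicle and 253, 240 and 236 CPM with E2, and its log2 fold change was -0.29 with SE 0.16 (adjusted p = 0.197). Without replicate 2 of the vehicle group, it was -0.48 with an adjusted p of 0.0219, so that 5 members rather than 3 were called lower. This library had a summed level of 7 cholangiocyte markers of 555 CPM, against 222 and 126 CPM in the other vehicle libraries. It also had the lowest total of all libraries (10470665 counts), and its 10 hepatocyte markers summed to 115241 CPM, against 147947 and 141883 CPM. The part of these differences in the Abcc3 and Abcc4 values was not tested.

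The uptake carriers did not pass either. Slco1b2 had 719, 603 and 844 CPM with vehicle and 705, 426 and 495 CPM with E2, and its log2 fold change was -0.41 with SE 0.20 (adjusted p = 0.142). Replicate 1 of the E2 group was the high library, and without it the value was -0.66 with an adjusted p of 0.0243. For Slco1a4, a carrier of cardiac glycosides and bile acids, the vehicle libraries had 52.0, 48.9 and 105 CPM and the E2 libraries 49.4, 54.2 and 61.8 CPM (log2 fold change -0.32, adjusted p = 0.409). Slco2b1 was the only member above 0, at 0.22 (SE 0.15, adjusted p = 0.29).

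**Figure D2:**
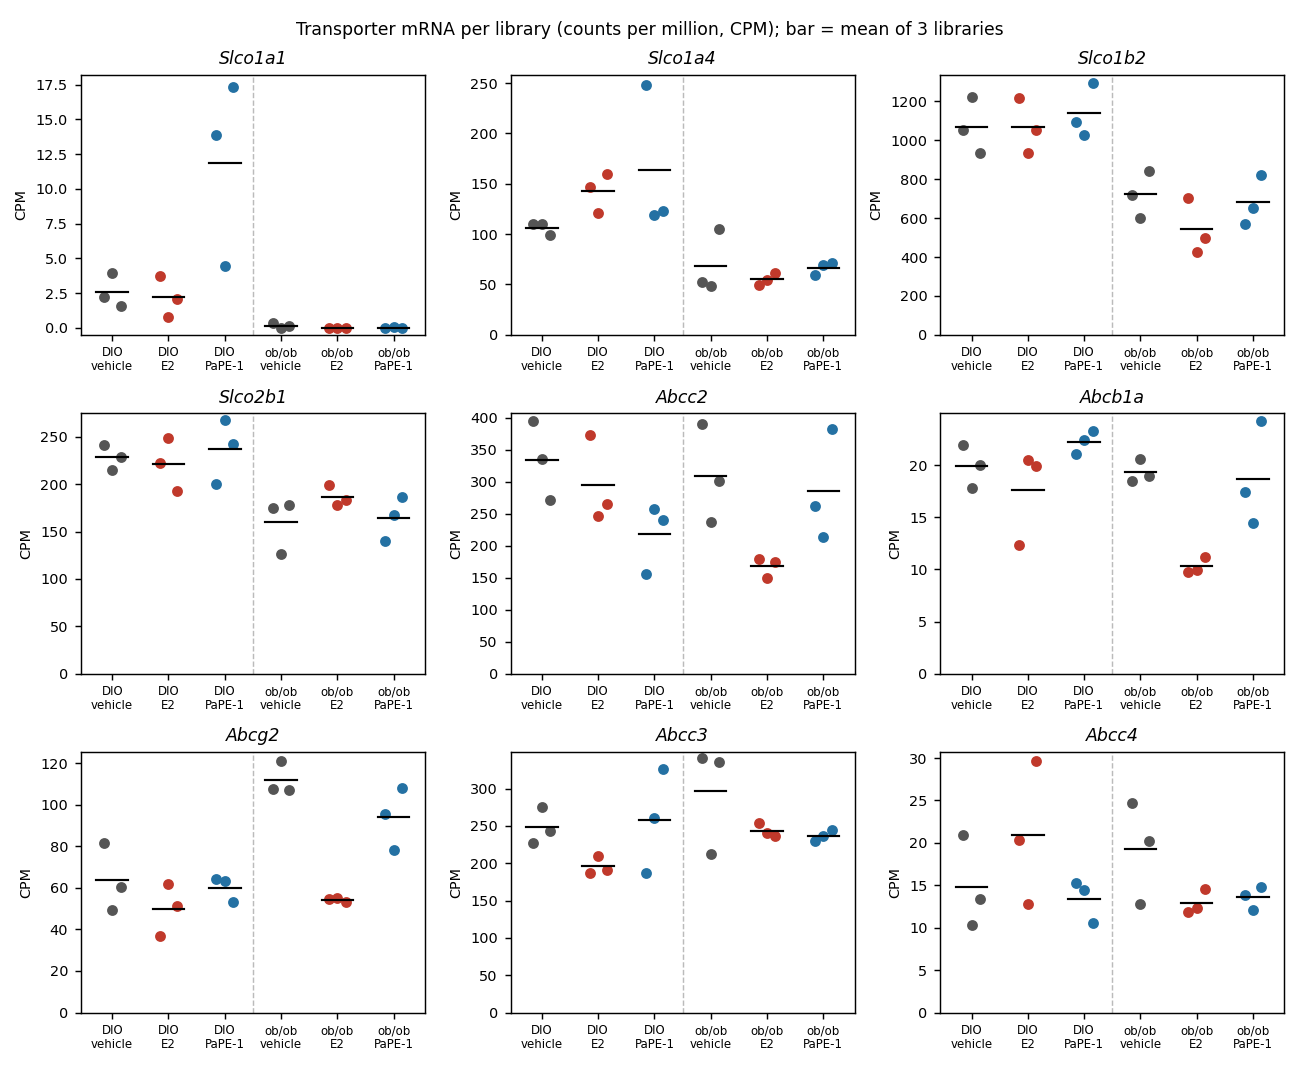
CPM of each of the 9 transporter mRNAs in every library, with 3 points per group and a bar at their mean (grey vehicle, red E2, blue PaPE-1, DIO left and ob/ob right of the dashed line, each panel with its own linear axis). In ob/ob liver the E2 points of Abcc2, Abcb1a and Abcg2 lie below all vehicle and PaPE-1 points. The share of all genes separated in this way was not counted.

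With PaPE-1, none of these pumps changed past the threshold in ob/ob liver. Abcg2 had 95.6, 78.3 and 108 CPM, Abcb1a 17.4, 14.4 and 24.2 CPM, and Abcc2 262, 213 and 383 CPM in the PaPE-1 libraries, and each overlapped the vehicle group. The log2 fold changes against vehicle were -0.25 (95% interval -0.51 to 0.01), -0.04 (-0.40 to 0.31) and -0.11 (-0.59 to 0.37). No member passed by edgeR, DESeq2 or limma voom, in a comparison where 0% of all genes passed. At an unadjusted p under 0.05 there was 1 member, Abcc4 at -0.50 (95% interval -0.93 to -0.08, adjusted p above 0.99), against 2.65% of all genes tested. The Abcc4 libraries had 13.9, 12.1 and 14.8 CPM with PaPE-1.

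PaPE-1 and E2 were given at different doses, so their comparison sets one arm beside the other as given. Abcb1a was 0.87 higher on the log2 scale with PaPE-1 than with E2 (SE 0.17, adjusted p = 0.00701), Abcg2 0.79 higher (SE 0.12, adjusted p = 0.00325) and Abcc2 0.77 higher (SE 0.22, adjusted p = 0.0348). The PaPE-1 libraries did not overlap the E2 libraries in any of the 3, and how often this held over all genes was not counted. The background was 17.4% of all genes called in either direction and 10% higher. The Abcc2 call was lost in 6 of 13 alternatives, among them every omission of an E2 library, of PaPE-1 replicate 1 and of PaPE-1 replicate 3 (adjusted p up to 0.144). This comparison shares its E2 libraries with that against vehicle. For the other members, the differences were 0.33 for Slco1b2 (adjusted p = 0.258), 0.27 for Slco1a4, 0.08 for Abcc4, -0.04 for Abcc3 and -0.18 for Slco2b1, none past the threshold. Slco1b2 passed without replicate 1 of the E2 group (0.58, adjusted p = 0.0439).

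**Figure D3:**
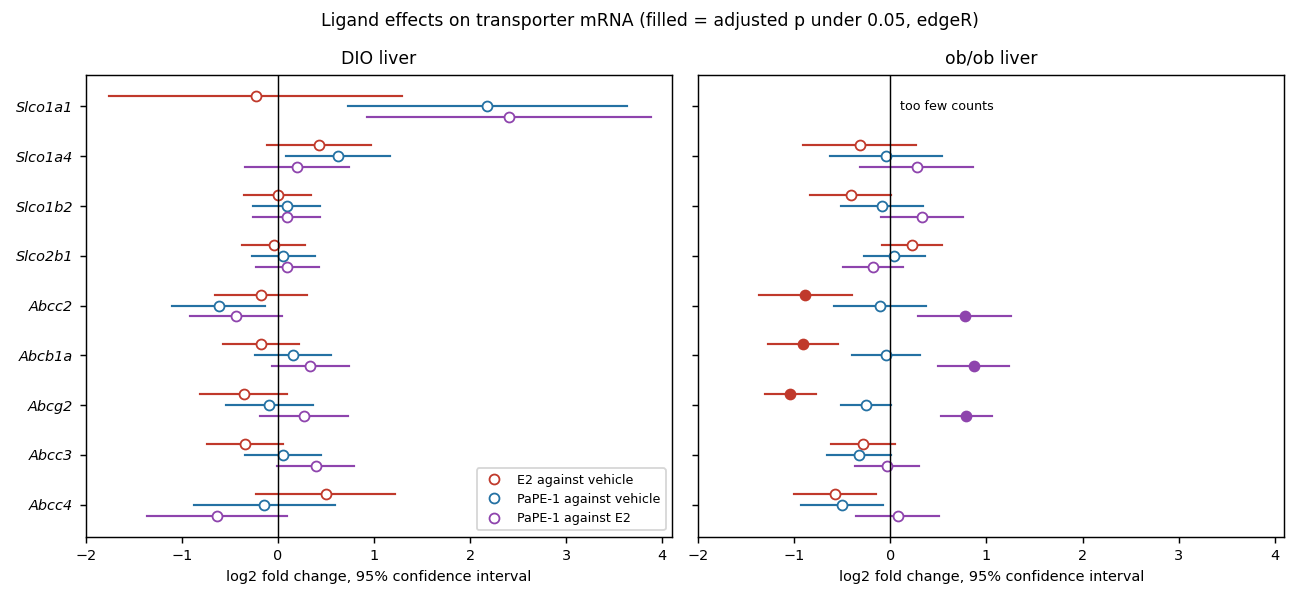
Log2 fold changes of the transporter mRNAs with 95% confidence intervals in DIO liver (left) and ob/ob liver (right), for E2 against vehicle (red), PaPE-1 against vehicle (blue) and PaPE-1 against E2 (purple), with filled points where the adjusted p was under 0.05. The filled points are those of Abcc2, Abcb1a and Abcg2 in ob/ob liver, lower with E2 (-0.89, -0.91 and -1.04) and higher with PaPE-1 than with E2 (0.77, 0.87 and 0.79).

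In DIO liver, no member passed in any of the 3 comparisons by edgeR or limma voom. The largest differences with PaPE-1 belonged to Slco1a1, an uptake carrier that is known to be higher in male than in female mouse liver. It had 2.25, 3.97 and 1.55 CPM with vehicle, 3.71, 0.811 and 2.11 CPM with E2, and 13.8, 4.42 and 17.4 CPM with PaPE-1. The PaPE-1 libraries were above all others, from 91 to 257 counts, although the lowest of them was close to the highest vehicle library. Against vehicle the log2 fold change was 2.18 (SE 0.63, interval 0.73 to 3.63, adjusted p = 0.124), and against E2 it was 2.41 (SE 0.65, interval 0.93 to 3.89, adjusted p = 0.184). By DESeq2's Wald test both passed (adjusted p = 0.0366 and 0.0436), and by limma voom and the other alternatives neither did.

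The nearby gene Slco1a4, known to be higher in female liver, had 110, 110 and 99.1 CPM with vehicle, 147, 121 and 160 CPM with E2, and 249, 119 and 123 CPM with PaPE-1. All libraries of both ligands were above those of vehicle. The log2 fold changes were 0.42 with E2 (SE 0.25, adjusted p above 0.99) and 0.62 with PaPE-1 (SE 0.25, interval 0.08 to 1.17, adjusted p = 0.186). The PaPE-1 value rested on replicate 1, without which it was 0.19 (adjusted p = 0.545). Abcc2 had 394, 335 and 272 CPM with vehicle and 155, 257 and 241 CPM with PaPE-1, without overlap, and its log2 fold change was -0.62 with SE 0.22 (interval -1.10 to -0.13, adjusted p = 0.151). The share of all genes without overlap was not counted, so such separation adds nothing to these tests.

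These 3 genes were the members with an unadjusted p under 0.05 for PaPE-1 against vehicle in DIO liver, 3 of 9 against 21.1% of all 13884 genes tested, while 0% of the genes passed after adjustment. That count of 0 depended on the setting: 773 genes passed with only the compared groups in the fit, 752 by DESeq2's Wald test, 385 with no filter on low counts and 153 without replicate 2 of the PaPE-1 group. For PaPE-1 against E2 there was 1 of 9, against a background of 17% unadjusted and 0.036% adjusted. For E2 against vehicle there was none, by edgeR, DESeq2 or voom after adjustment and by edgeR also unadjusted, against 5.22% of all genes unadjusted and 0% adjusted. A share near the background says nothing particular about these transporters.

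In DIO liver, the E2 libraries of the pumps that fell with E2 in ob/ob liver overlapped those of vehicle. Abcg2 had 81.8, 49.2 and 60.6 CPM with vehicle, 36.8, 61.6 and 51.2 CPM with E2 and 64.1, 63.1 and 52.9 CPM with PaPE-1. Abcb1a had 21.9, 17.8 and 20.02 CPM with vehicle, 12.3, 20.5 and 19.9 CPM with E2 and 21.01, 22.4 and 23.2 CPM with PaPE-1. Abcc2 had 394, 335 and 272 CPM with vehicle and 373, 247 and 265 CPM with E2. The PaPE-1 libraries of Abcc2 lay below those of vehicle, as given above, and those of Abcb1a lay above those of E2 (log2 difference 0.34, adjusted p = 0.359). In Abcg2 and Abcb1a the lowest library of the model was replicate 1 of the E2 group. The log2 fold changes with E2 were -0.36 (interval -0.81 to 0.10) for Abcg2, -0.18 (-0.57 to 0.22) for Abcb1a and -0.18 (-0.66 to 0.30) for Abcc2.

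Of the remaining members in DIO liver, Abcc3 had 227, 275 and 243 CPM with vehicle and 187, 210 and 191 CPM with E2 (log2 fold change -0.34, SE 0.18, interval -0.74 to 0.06). These groups did not overlap, but the share of all genes of which this held was not counted. Abcc4 ranged from 10.3 to 29.7 CPM over the model, with its highest library in the E2 group. Slco1b2 (935 to 1295 CPM) and Slco2b1 (193 to 268 CPM) overlapped between all groups, and their log2 fold changes against vehicle had 95% intervals of -0.35 to 0.35 and -0.37 to 0.28 with E2 and of -0.26 to 0.44 and -0.28 to 0.38 with PaPE-1. Replicate 2 of the DIO E2 group stood apart in a list of 10 female-biased genes, whose summed level was 2597 CPM there against 5976 and 6712 CPM in the other E2 libraries. Without it, as with it, no member passed for E2 against vehicle.

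Whether the effect of a ligand differed between the models was tested over all 18 libraries. For E2, the ob/ob effect was more negative than the DIO effect by 0.75 for Abcb1a (log2 difference of effects -0.75, SE 0.26, interval -1.29 to -0.20, adjusted p = 0.167), and the difference was -0.70 for Abcg2 (SE 0.26, adjusted p = 0.18), -1.09 for Abcc4 (SE 0.42, adjusted p = 0.207) and -0.72 for Abcc2 (SE 0.34, adjusted p = 0.287). None of the members passed by edgeR, DESeq2 or limma voom, where by edgeR 0.0141% of all 14171 genes did. At an unadjusted p under 0.05, these 4 genes stand against 16.9% of all genes. Without replicate 2 of the DIO E2 group, Abcc4 passed (-1.34, adjusted p = 0.0481). A fall with E2 that was particular to ob/ob liver was therefore not shown for Abcg2, Abcb1a or Abcc2. For PaPE-1, the differences of the 8 members with counts in both models lay between -0.68 and 0.49, none with an unadjusted p under 0.05, against backgrounds of 12.1% unadjusted and 0% adjusted. The value of Slco1a1 in these fits, which for PaPE-1 had an unadjusted p under 0.05, rests on ob/ob counts near 0 and is not given.

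Levels of the 3 canalicular pumps among the members were correlated with each other in ob/ob liver, and in DIO liver only those of Abcb1a and Abcg2 were. Over the 9 ob/ob libraries, log2 CPM of Abcb1a and Abcg2 had a Pearson correlation of 0.96, Abcc2 and Abcb1a of 0.88 and Abcc2 and Abcg2 of 0.84, in a set of libraries that includes the 3 low E2 libraries. Over the 9 DIO libraries, the values were 0.80 for Abcb1a and Abcg2, -0.47 for Abcc2 and Abcb1a and -0.21 for Abcc2 and Abcg2. Abcc2 thus did not follow Abcb1a or Abcg2 in DIO liver. The DIO value for Abcb1a and Abcg2 includes replicate 1 of the E2 group, the lowest library in both (12.3 and 36.8 CPM). How much of it rests on that library was not computed. The basolateral pair Abcc3 and Abcc4 had 0.89 in ob/ob and -0.71 in DIO liver.

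**Figure D4:**
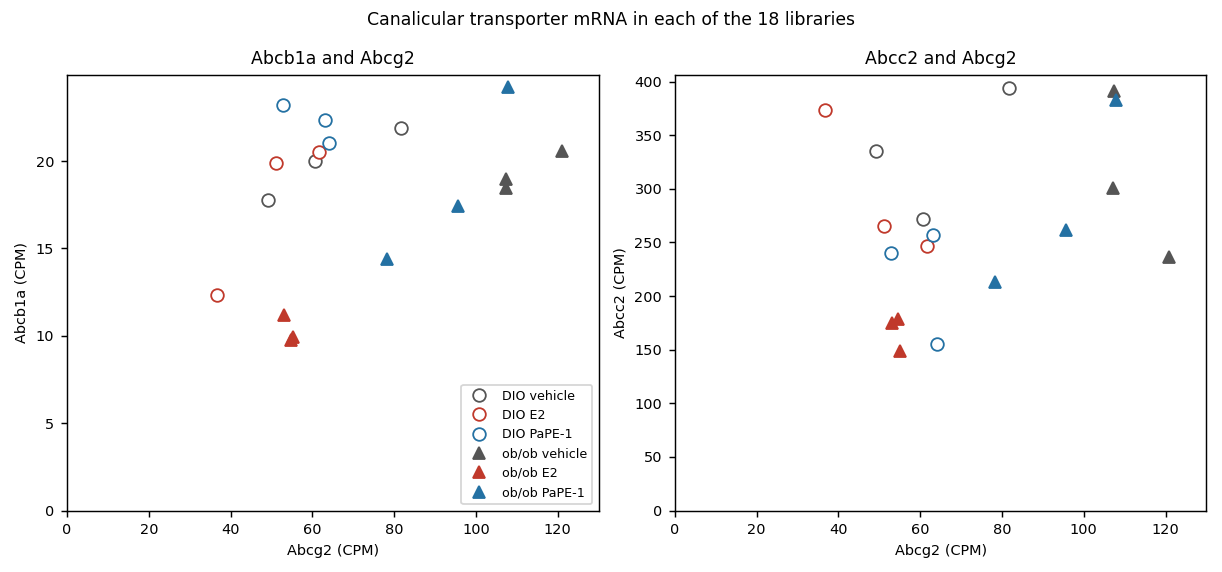
Abcb1a (left) and Abcc2 (right) plotted against Abcg2, in CPM on linear axes from 0, with 1 point per library (open circles DIO, filled triangles ob/ob, grey vehicle, red E2, blue PaPE-1). The 3 ob/ob E2 libraries cluster at 53.0 to 55.2 CPM of Abcg2 and 9.77 to 11.2 CPM of Abcb1a, and the DIO library with the lowest Abcg2 (36.8 CPM) also has the lowest Abcb1a of that model (12.3 CPM).

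Genes with the most similar pattern over the 18 libraries, after the mean of each model was subtracted, were found among 11717 genes. For Abcb1a they were Anxa7 (Pearson r = 0.97), Alpl (0.95) and Ptp4a1 (0.92), for Abcg2 they were Anxa7 (0.92), Abcb1a (0.91) and Fmo5 (0.91), and for Abcc2 they were Pdpk1 (0.97), Zbtb20 (0.96) and Nckap1 (0.96). Anxa7 encodes an annexin, Alpl the tissue-nonspecific alkaline phosphatase, which also sits in the canalicular membrane, and Pdpk1 a kinase of insulin signalling. For Slco1b2 they were Rnf146 (0.91), Yy1 (0.91) and Peli2 (0.90), and for Slco1a4 Crcp (0.85), Ftsj3 (0.82) and Ubl4a (0.82). For Slco2b1 they were Gaa (0.84), Cyp2j5 (0.84) and Aldh9a1 (0.83). The basolateral pumps had lower values, with Man2b1 (0.80), Elp3 (0.80) and Dlg3 (0.78) for Abcc3 and Enpep (0.80), Atp2a2 (0.78) and Tmem170b (0.77) for Abcc4. Some of these values differed between the models. For Enpep with Abcc4, r was 0.96 in DIO and 0.44 in ob/ob liver, whereas for Anxa7 with Abcb1a it was 0.96 and 0.98. These are descriptions over libraries that share treatments, and they carry no test.

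Other carriers of hepatocytes did not share a direction in ob/ob liver with E2. Of 18 other uptake carriers, 10 were tested, 2 rose and 1 fell, where 22.1% of all genes were called in either direction. Slc29a1, a nucleoside carrier, rose from 111 ± 8.004 to 221 ± 16.8 CPM (log2 fold change 0.997, adjusted p = 0.00163), and Slc22a7, an organic anion carrier, from 7.27 ± 0.631 to 22.9 ± 3.72 CPM (1.65, adjusted p = 0.00851). Slc22a3, an organic cation carrier, fell from 16.5 ± 3.73 to 6.70 ± 2.44 CPM (-1.29, adjusted p = 0.00682).

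Of 12 other efflux pumps, 11 were tested, 2 rose and 1 fell, a share near that of all genes (22.1%). Abcc6 (0.63, adjusted p = 0.0141) and Abcc10 (0.96, adjusted p = 0.0147) rose, and Abcb4, which moves phosphatidylcholine into bile, fell from 378 ± 16.6 to 269 ± 10.04 CPM (-0.49, adjusted p = 0.0167). These 3 calls were lost without E2 replicate 2 or without E2 replicate 3, and that of Abcb4 also without vehicle replicate 3. Abcb11, Abcg5, Abcg8 and Slc47a1, on the same list, were not among the pumps called. Of the 11 tested, 6 had a log2 fold change above 0 and 5 below, with a median of 0.003. A fall with E2 was thus not common to this list. Abcb1b, the second P-glycoprotein gene, had 0.785 ± 0.253 CPM with vehicle and 0.353 ± 0.212 CPM with E2 (-1.13, adjusted p = 0.125), and passed without E2 replicate 1 (-1.73, adjusted p = 0.0483). Of the 6 scaffold genes tested none passed, by edgeR either unadjusted or adjusted, and Pdzk1, the PDZ protein that tethers several Slco carriers, had 0.20 (adjusted p = 0.275).

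Regulators of these transporters were measured as well. Of 16 tested, 4 rose with E2 in ob/ob liver and none fell, where 1318 of all 13433 genes rose and 22.1% were called in either direction. Cux2, a repressor that female liver expresses, rose from 2.00 ± 1.25 to 14.7 ± 1.30 CPM (log2 fold change 2.84, adjusted p = 0.00364), Nr1i3, which encodes CAR, from 44.4 ± 16.4 to 110 ± 22.5 CPM (1.30, adjusted p = 0.00925), and Nr0b2, a corepressor of bile acid signalling, from 31.4 ± 1.85 to 69.3 ± 6.57 CPM (1.14, adjusted p = 0.0111). Esr1, the gene of the estrogen receptor alpha, rose by 0.75 on the log2 scale (adjusted p = 0.0275). The call of Nr0b2 was lost without E2 replicate 2, and that of Esr1 without any 1 of the E2 libraries or of vehicle replicates 2 and 3 (adjusted p up to 0.0959). Nr1i2, which encodes PXR, had -0.10 (adjusted p = 0.632), and Nfe2l2 had -0.33 (adjusted p = 0.0671), with 0.0448 by DESeq2's Wald test.

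Genes known as targets of these regulators were counted apart. Of 5 targets of CAR and PXR, 1 fell, none rose and 4 were not called, a share near that of all genes (22.1% in either direction, 12.3% lower). At an unadjusted p under 0.05, 1 was higher and 2 were lower. The target that fell was Cyp2b10, the usual marker of CAR activity, which went from 7.96 ± 1.88 to 2.29 ± 0.249 CPM (-1.80, adjusted p = 0.00125) while Nr1i3 itself rose. Of 9 targets of NRF2, 5 fell and none rose, against 12.3% of all genes lower. Srxn1, a sulfiredoxin, fell from 208 ± 7.26 to 98.4 ± 5.42 CPM (-1.08, adjusted p = 0.000857), and Nqo1, a quinone reductase, from 34.5 ± 1.05 to 23.8 ± 1.33 CPM (-0.54, adjusted p = 0.00574). Txnrd1 (-0.53, adjusted p = 0.01) and Slc7a11 (-2.63, adjusted p = 0.0234) fell too, as did Gclc (-0.51, adjusted p = 0.0292), which the rule for named genes leaves out and which was added after its value was seen. The call of Txnrd1 was lost without E2 replicate 2, and that of Slc7a11, which had 1.197 ± 1.005 CPM with vehicle and 0.177 ± 0.0386 CPM with E2, with limma voom and without any E2 library or vehicle replicate 2. Of the 3 AHR targets tested none passed, adjusted or unadjusted.

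With PaPE-1 against vehicle, none of the genes of these 7 lists passed in either model by edgeR. In ob/ob liver, 4 of the 60 genes tested had an unadjusted p under 0.05, against 2.65% of all genes. They were Cyp2b10 (-0.98), Cux2 (1.08), Srxn1 (-0.26) and the prostaglandin carrier Slco2a1 (-0.29), which was named after its value was seen. In DIO liver, 12 of the 59 genes tested had an unadjusted p under 0.05 with PaPE-1, against 21.1% of all genes. Among them were Nr1i3 (0.48, 95% interval 0.06 to 0.90), Slc29a1 (0.41, 0.04 to 0.78) and Srxn1 (-0.30, -0.59 to -0.01). With E2 the number was also 12 of 59, against 5.22% of all genes, and none passed after adjustment. Among these were Cux2 (1.12, 95% interval 0.41 to 1.83), Esr1 (0.995, 0.43 to 1.56), Slc29a1 (0.69, 0.32 to 1.06), Pdzk1 (0.42, 0.08 to 0.75) and Cyp2b10 (-0.62, -1.22 to -0.02). Esr1 passed without replicate 2 of the E2 group (1.26, adjusted p = 0.00567).

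**Figure D5:**
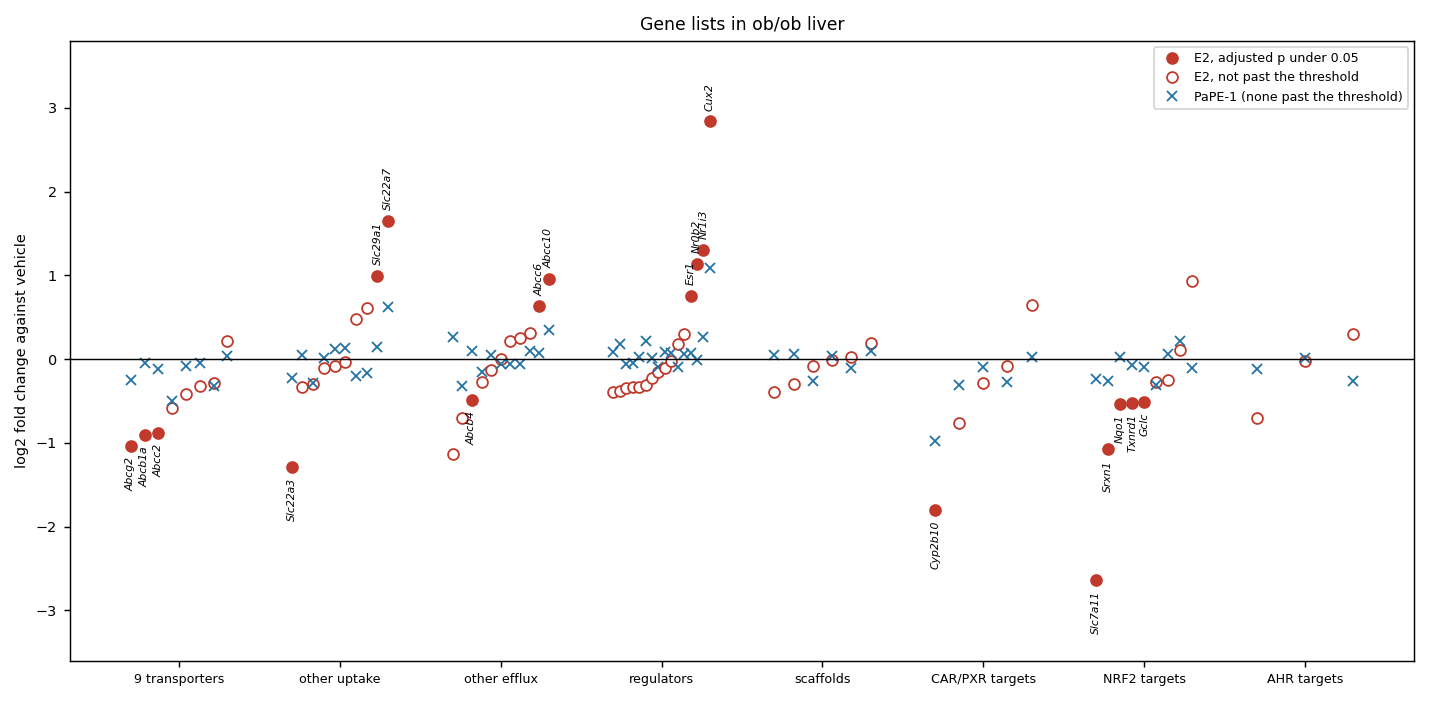
Log2 fold changes against vehicle in ob/ob liver of the genes tested from 8 lists, sorted within each list by the E2 value (red circles, filled and named where the adjusted p was under 0.05), with the PaPE-1 value of the same gene as a blue cross. Filled circles lie below 0 for 3 of the 8 transporters, 5 of 9 NRF2 targets and 1 of 5 CAR and PXR targets. They lie above 0 for 4 of 16 regulators. Among 10 other uptake carriers, and among 11 other efflux pumps, 2 lie above and 1 below 0. Of all 13433 genes tested, 22.1% were called, 1318 genes higher and 12.3% lower.

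Markers of several, but not all, other cell types differed in the same libraries. With E2 in ob/ob liver, 22.1% of all 13433 genes tested were called in either direction, 1318 genes higher and 12.3% lower. In ob/ob liver the summed level of 7 neutrophil markers was 5.12 to 6.03 CPM with vehicle, 88.2 to 346 CPM with E2 and 2.77 to 60.2 CPM with PaPE-1, and all 7 were called higher with E2. The 8 endothelial markers summed to 179 to 201 CPM with vehicle and 295 to 361 CPM with E2, with 7 of 8 called higher. The 7 Kupffer cell markers summed to 262 to 358 CPM with vehicle and 425 to 591 CPM with E2, with 4 called higher. For the 7 stellate cell markers the sums were 485 to 587 and 638 to 683 CPM, with 1 called higher, a share near that of all genes. None of the 7 cholangiocyte or 5 erythroid markers tested was called, and 1 of 6 lymphocyte markers was called higher. The 10 hepatocyte markers summed to 115241 to 147947 CPM with vehicle and 180669 to 199667 CPM with E2, with 6 called higher and 1 lower. Of sex-biased liver genes tested, 8 of 9 female-biased genes were called higher with E2 and none lower, and 2 of 9 male-biased genes were called higher and 5 lower. The fall of Abcg2, Abcb1a and Abcc2 thus came beside a higher summed level of hepatocyte markers, and the part of cell makeup and of sex-biased expression in it was not tested.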

How the data were processed

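Liver RNA-seq libraries (18, with 3 per group) were used. The authors deposited a table of raw read counts per gene for each model, made, per the labels and file headers, by alignment with STAR (2.7.6a) and counting with featureCounts (2.0.0, strand option 2) on RefSeq genes of GRCm39. The authors also deposited DESeq2 results (fold changes and p-values), which were not used, nor were their 36 columns of normalized counts. The paper's methods name another aligner and test, and the file headers were followed.

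The counts were tested with edgeR (4.0.16, under R 4.3.3): filterByExpr, TMM scaling within a model, and the robust quasi-likelihood test with a mean per group over the 9 libraries of a model, or over 18 libraries for differences between models. The SE was the absolute log2 fold change over the root of F. The Benjamini-Hochberg adjustment took in every gene tested (threshold 0.05). The paper gives 3 biological replicates per group, the labels do not tie libraries to animals, and p-values measure the spread between these libraries. Log2 CPM used a prior count of 2. Overlap of libraries between groups was noted for listed genes only and was not counted over all genes. Alternatives were DESeq2 size factors, DESeq2 (1.42.0), limma voom (3.58.1), other filters, the compared groups alone, a loess length trend (span 0.5), and each library left out in turn.

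Members, gene lists and tests were chosen with earlier results of these data known. Besides the members, up to 4 genes per list and comparison with the smallest adjusted p were named, and Esr1, Nr1i2, Nr1i3, Nfe2l2, Pdzk1, Abcb1b and Cux2 always. A gene of the uptake carrier list is not reported here. Sharing of 100-base transcript stretches was checked in GENCODE vM21. The fit was tested on simulated data: for E2 against vehicle in ob/ob liver, 71 of 98 genes changed 2-fold and 92 of 100 changed 4-fold were called, with 9 of 13058 unchanged genes (DIO liver: 63 of 100, 91 of 98 and 12 of 13501).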

Additional observations from a re-analysis of the deposited data

How the results depend on the processing

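Of 967 values of the 9 members under the alternatives, 950 stayed on their side of the threshold, 8 were no longer past it and 9 were newly past it. Most of the 967 belong to members not called in the main fit, in comparisons where few or no genes passed. That these stayed uncalled says little about how firm the calls are, and all 8 losses were of Abcc2. None changed sign with a call, and 46 values that were not called before or after did. For E2 against vehicle in ob/ob liver, the number of members called lower ranged from 2 to 5 with each library left out in turn. The 5 came without replicate 2 of the vehicle group. With DESeq2's Wald test, 1 member (Slco1a1) was called higher for PaPE-1 against vehicle and 1 for PaPE-1 against E2 in DIO liver, against 0 by edgeR. For the difference of the E2 effect between models, 0 to 1 members were called lower with 1 library left out, the 1 being Abcc4 without replicate 2 of the DIO E2 group. Over all genes, 67 were higher and 66 lower with E2 in DIO liver without that library, against 0, and 129 were higher and 24 lower with PaPE-1 without replicate 2 of the DIO PaPE-1 group, against 0. With no filter on low counts 385 genes were called for PaPE-1 against vehicle in DIO liver, and 773 with only the compared groups. DESeq2's Wald test called 752 genes for PaPE-1 against vehicle in DIO liver, 21 for E2, 228 for PaPE-1 against E2, and 338 and 156 for the differences of the E2 and PaPE-1 effects between models, against 0, 0, 5, 2 and 0 by edgeR. In ob/ob liver with E2, 2972 genes were called, and 778 without replicate 2 of the E2 group. Where an omission left 2 libraries in a group, the spread was pooled over the groups. The causes of these changes were not tested. Low counts limit Slco1a1 in both models and Abcb1b and Slc7a11 in ob/ob liver. No paired analysis was possible because replicate numbers were given here in accession order and mark no shared animal, litter or day.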

Other observations

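Some members of the wider carrier lists were too low to be tested in ob/ob liver, 8 of 18 other uptake carriers and 1 of 12 other efflux pumps among them. In ob/ob liver, PaPE-1 against E2 gave 4 of 9 NRF2 targets higher and none lower, against 10% of all genes higher. They were Srxn1 at 0.81 (adjusted p = 0.00225), Nqo1 at 0.56 (adjusted p = 0.00582), Txnrd1 at 0.45 (adjusted p = 0.0218) and Slc7a11 at 2.40 (adjusted p = 0.0415). Txnrd1 was lost in 3 of 13 alternatives (without E2 replicate 2 or 3 or PaPE-1 replicate 3, adjusted p up to 0.124) and Slc7a11 in 7 of 11 (limma voom, the length trend removed, and without any E2 library or PaPE-1 replicate 1 or 3, adjusted p up to 0.184). The comparison shares its E2 libraries with that against vehicle.

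Erythroid markers summed to 2664 and 1817 CPM in PaPE-1 replicates 1 and 2 of ob/ob liver, against 272 to 512 CPM with vehicle, and their part in the transporter values was not tested.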
